A study of Arabidopsis thaliana with 6 samples.

Results

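Receptor-like proteins are plant cell-surface proteins with leucine-rich repeats outside the cell, a single membrane span and a short tail that lacks a kinase. Of 58 listed Arabidopsis thaliana loci of this family, 2 could be measured here: AT2G15042 and AT4G13820. The members were chosen by locus, each through the brightest probe set that the platform annotation assigns to a single gene, and 13355 genes in all had such a probe set. AT2G15042 and AT4G13820 each had 1 such probe set. For the other 56 loci the annotation table used here gave no single-gene probe set, and 0 of the 58 appeared on a probe set shared by several genes, so those loci are not analysed here.

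Because they carry no kinase of their own, receptor-like proteins act through partner kinases: the adaptor kinase SOBIR1 binds many of the immune members, and the coreceptor BAK1 joins when a ligand is bound. Members with known roles sense microbial proteins, as RLP23, RLP30, RLP32 and RLP42 do, or take part in growth, as CLV2 does in the shoot meristem, TMM in stomatal patterning and RLP44 in cell wall and brassinosteroid signalling. Of the members with a role fixed in the lists (CLV2, TMM, RLP44, RLP1, RLP3, RLP23, RLP30, RLP32, RLP42, SNC2, RLP52 and RPP27), none has a value here. AT2G15042 and AT4G13820 carry no receptor-like protein number in the TAIR10.1 gene table, which names both by locus only and lists both as protein coding. Their protein sequences were not used here, so their place in the family rests on the list of loci and was not checked against the domains.

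Untreated Col-0 wild type (WT) plants were compared with the ka120 mutant on a 3-prime expression array. The mutant is named for KA120 (AT3G08960), a nuclear transport receptor of the importin-beta family. Each genotype had 3 arrays, described as biological replicates. Plants grew on soil at 22 °C with 12 h light and 12 h dark; the samples are described in one place as entire rosettes 3 weeks old and in another as mature leaf after 4 weeks of growth. The labels state neither the ka120 allele nor how many independent lines were used.

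Levels are log2 values of a probe set, and a difference is the ka120 mean minus the WT mean. Array medians lay between 4.63 and 4.79, and the number of arrays limits the precision. The KA120 probe set lay between 3.65 and 4.17 in the mutant and between 4.34 and 4.55 in WT, without overlap but below the array medians. Since the labels do not place the mutation, this checks the genotype only weakly. The 6 measured leaf markers of 10 listed, which are photosynthesis genes, were at percentile 99.6 or above of all probe sets in WT. The 2 measured root markers of 6 listed were at percentiles 32.9 and 38.2 in WT. Of 5 flower markers 0 were measured. In leaf tissue as a whole, fewer cells of a type and less RNA per cell cannot be told apart.

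AT2G15042 was much higher in ka120. Its level in replicates 1 to 3 was 6.86, 6.73 and 6.86 in ka120, against 4.23, 4.06 and 3.92 in WT. All ka120 arrays lay above all WT arrays, and the lowest ka120 array exceeded the highest WT array by 2.49 on the log2 scale. The means were 6.82 ± 0.08 in ka120 and 4.07 ± 0.16 in WT (log2, SD, n = 3 arrays each). The difference was 2.75 on the log2 scale (SE 0.10, 95% interval 2.52 to 2.98, limma adjusted p = 2.12e-08). The probe set moved from percentile 42.4 of all probe sets in WT to percentile 76.9 in ka120. The WT level lay below the array medians and has no detection call beside it, so no fold is given.

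AT4G13820 was also higher in ka120, at a low level in both genotypes. Its level in replicates 1 to 3 was 4.11, 3.77 and 3.76 in ka120, against 3.18, 2.90 and 2.89 in WT. The groups did not overlap, with a gap of 0.58 on the log2 scale between the lowest ka120 array and the highest WT array. Replicate 1 was the highest array in each genotype, and the other 2 arrays of each genotype lay close together. The means were 3.88 ± 0.20 in ka120 and 2.99 ± 0.17 in WT (log2, SD, n = 3 arrays each), a difference of 0.89 (SE 0.12, 95% interval 0.62 to 1.16, limma adjusted p = 0.000197). The probe set stood at percentile 14.0 in WT and 38.9 in ka120, both below the median of all probe sets. Neither level was shown to exceed background, and a filter that removes the dimmest 40% of probe sets removes this one.

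**Figure D1:**
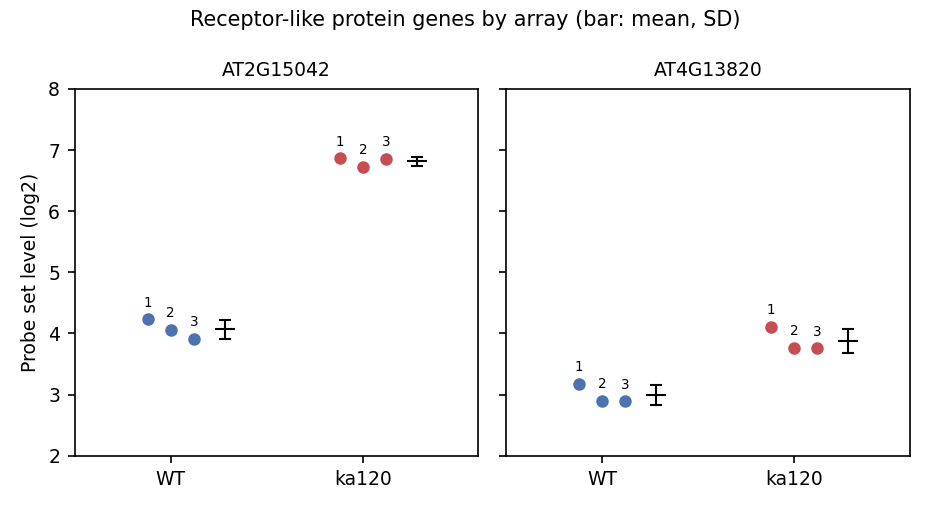
Level of each measured receptor-like protein gene (log2, vertical axis) on the 3 WT and the 3 ka120 arrays; points are arrays with their replicate number, and the bar beside them is the mean with its SD. In both genes every ka120 point lies above every WT point, with a gap of 2.49 for AT2G15042 and 0.58 for AT4G13820.

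Both measured members passed the test as higher in ka120, 2 of 2, and 0 were lower. Across all genes 17.5% were called higher and 15.5% lower at an adjusted p of 0.05, and the median difference over all genes was -0.03 on the log2 scale. With 2 of 58 loci measured, this count says nothing of the other members. A difference as large as that of AT2G15042 or larger was found for 27 of 13355 genes, 0.202% of them, counting AT2G15042 itself. For AT4G13820 the corresponding count was 557 genes, 4.17% of them, a place that rests on levels not shown to exceed background. The responses of the 2 genes were not compared.

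**Figure D2:**
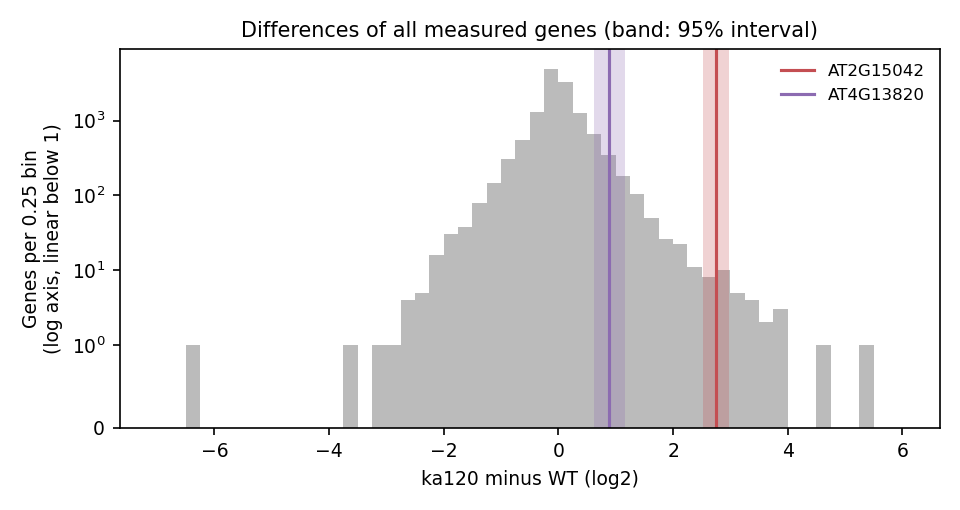
Number of genes (vertical axis, logarithmic above 1) per bin of the ka120 minus WT difference (log2, horizontal axis) over 13355 genes; vertical lines mark the 2 receptor-like protein genes and bands their 95% intervals. AT2G15042, at 2.75, lies in the sparse upper tail with 27 genes at or above it, and AT4G13820, at 0.89, lies on the shoulder with 557.

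The direction of both differences was the same under each scaling of the arrays that was tried. The difference of AT2G15042 ran from 2.62 after centring each array on its median to 3.18 after removal of an offset that varied with level in the hybridization controls. For AT4G13820 the same scalings gave 0.77 and 1.33. Those controls, transcripts added in known amounts, themselves differed between the genotypes, by -0.44 for the dimmest, BioB, and by 0.03 for the brightest, Cre (ka120 minus WT, log2). In both genotypes the mean of BioB (7.28 in ka120 and 7.72 in WT, log2) lay above the means of both genes. Probe sets dimmer than BioB, both genes among them, received the BioB offset unchanged when the level-dependent offset was removed. The controls thus give no offset at the levels of the 2 genes, and the part of such an offset in their differences was not tested.

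Many receptor-like protein genes sit in tandem groups. With at most 10 annotated genes between neighbours, 37 of the 58 listed loci fell into 13 groups of 2 or more. AT2G15042 grouped with RLP19 (AT2G15080), and before it in gene order, past 1 noncoding locus, the gene table places RLP18 (AT2G15040), annotated as a transcribed pseudogene. AT4G13820 lay next to RLP47 (AT4G13810) in a group of 5 with RLP48, RLP49 and RLP50. The level of each of these tandem relatives is not analysed here. Related copies can share sequence, and whether transcripts of a relative hybridized to either probe set was not tested, since probe sequences were not used here; neither probe set carries the suffix that marks a probe set as shared between transcripts.

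Few of the genes around each member were measured. Of the 20 annotated genes nearest to AT2G15042, 10 on each side, 5 were measured. Of these 0 passed as higher, and AT2G15020 fell by 1.65 on the log2 scale (limma adjusted p = 5.2e-06). The other 4 gave differences between -0.17 and 0.20 without passing. These 4 were at percentile 18.9 or below in WT, levels not shown to exceed background. Among them AT2G15060, AT2G15070 and AT2G15100 are annotated as pseudogenes. Around AT4G13820, 8 of 20 were measured, of which 1 was higher, 3 were lower and 4 did not pass. Over all genes 32.9% were called in either direction, 17.5% higher and 15.5% lower. With so few neighbours measured nothing is read from these counts. The closest measured gene on one side, AT4G13800, was at 4.05, 4.03 and 3.86 in ka120, against 5.89, 6.28 and 5.84 in WT, and fell by 2.02 (limma adjusted p = 5.96e-07). The closest on the other side, AT4G13840, fell by 1.16 (limma adjusted p = 9.23e-05), and AT4G13780 rose by 0.49 (limma adjusted p = 0.00325). The closest measured gene on either side of AT4G13820 differed in the opposite direction to it, and AT4G13780 in the same direction. The neighbours were added after values had been seen, so nothing is read from these directions.

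**Figure D3:**
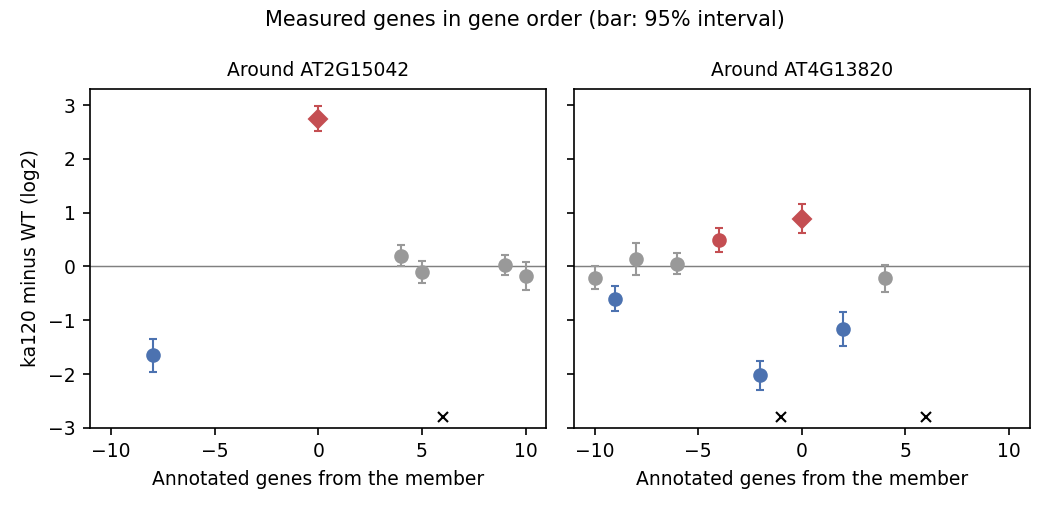
Difference between ka120 and WT (log2, vertical axis, bars are 95% intervals) of the measured genes within 10 annotated genes of AT2G15042 and AT4G13820 in gene order (horizontal axis); diamonds are the members, red marks higher, blue lower and grey not passed, and crosses at the bottom mark listed receptor-like protein loci without a value. The members stand at 2.75 and 0.89. The measured neighbours lie between -1.65 and 0.20 on the left and between -2.02 and 0.49 on the right. The grey neighbours on the left were at percentile 18.9 or below in WT.

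The partner genes were few. Of 32 listed genes that act with receptor-like proteins, 6 were measured: 2 were higher in ka120, 3 were lower and 1 did not pass, beside 17.5% higher and 15.5% lower over all genes. SOBIR1, BAK1, EDS1 and PAD4 are not analysed here. BIK1, a receptor-like cytoplasmic kinase that relays signals from immune receptors, was at 5.74, 5.80 and 5.99 in ka120 and 4.72, 4.42 and 4.29 in WT, and rose by 1.37 on the log2 scale (SE 0.12, limma adjusted p = 8.63e-06). SAG101, a partner of the immune regulator EDS1, was at 4.87, 5.11 and 5.15 in ka120 and 3.59, 3.35 and 3.34 in WT, and rose by 1.62 (SE 0.11, limma adjusted p = 1.26e-06). For both genes all ka120 arrays lay above all WT arrays. In WT, BIK1 was at percentile 48 of all probe sets and SAG101 at percentile 29.7, levels not shown to exceed background.

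EPFL9, also called STOMAGEN, encodes a secreted peptide that promotes stomatal formation and acts on the receptors that pair with TMM. Its level was 8.04, 7.70 and 7.93 in ka120 and 8.70, 8.60 and 8.42 in WT, and it fell by 0.68 (SE 0.11, limma adjusted p = 0.000745), with all ka120 arrays below all WT arrays. Under the control-based scalings the difference was smaller, at -0.48 and -0.32. The meristem peptide CLV3, whose signalling involves CLV2, gave a difference of -0.10 at a low level and did not pass (limma adjusted p = 0.531); it turned to 0.33 and passed as higher with the level-dependent control offset removed (limma adjusted p = 0.0322). The listed loci AT1G27190 and AT1G76360, which the gene table names by locus only, were lower in ka120, with differences of -0.43 and -0.47 (limma adjusted p = 0.00302 and 0.00212). Both lost their call after centring on the hybridization controls, at -0.23 and -0.27 (limma adjusted p = 0.11 and 0.0787). AT1G27190 was the 1 gene with a value in a list of 8 headed coreceptors and adaptors of receptor-like proteins. Whether it acts as either was not checked here, so no role is read from its fall. AT1G76360 stood in the same list as BIK1, of which 2 genes were measured, 1 higher and 1 lower.

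**Figure D4:**
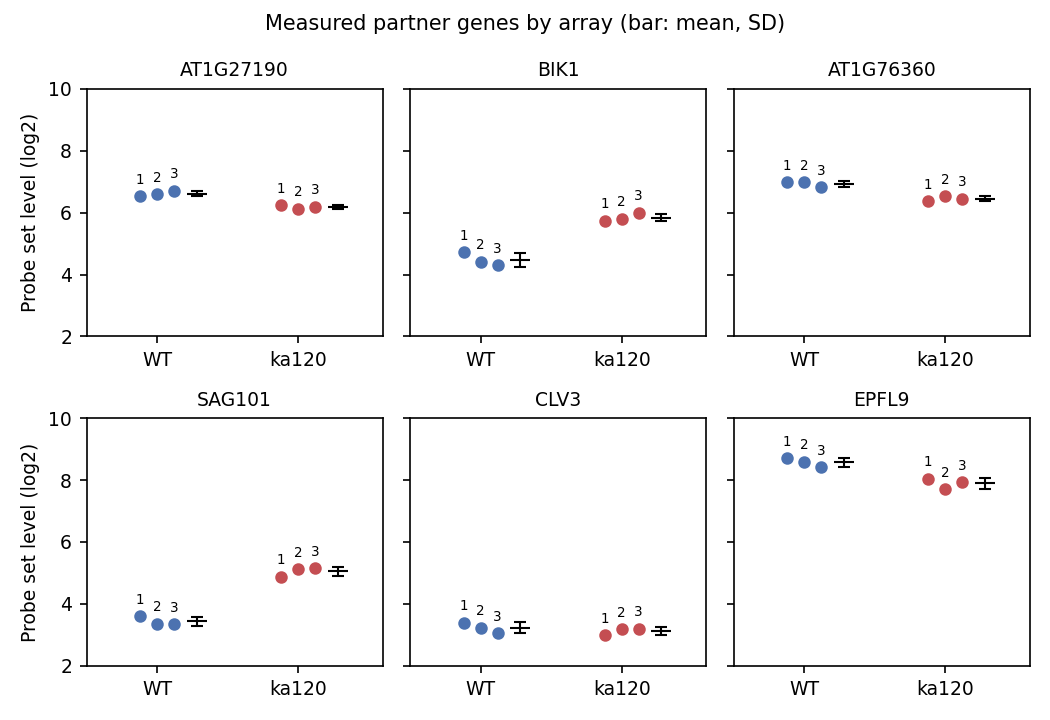
Level (log2, vertical axis) of the 6 measured partner genes on the 3 WT and the 3 ka120 arrays; points are arrays with their replicate number and the bar is the mean with its SD. BIK1 and SAG101 lie higher in every ka120 array than in every WT array, EPFL9, AT1G27190 and AT1G76360 lie lower, and the CLV3 points overlap.

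Other marker lists were set beside these results. Of the 6 measured photosynthesis genes 5 were lower in ka120 and 0 higher, beside 15.5% lower and 17.5% higher over all genes. The summed log2 level of the 6 was 70.4 to 70.7 in ka120 and 73.1 to 73.7 in WT. The 5 falls ran from -0.30 for PRK to -0.82 for PSAN, and their calls under the other scalings were not examined. Of 5 listed markers of guard cells and the stomatal lineage, 3 were measured, and MYB60 and KAT1 have no value here. The measured FMA, SPCH and MUTE were at percentiles 50.5, 51.9 and 22.7 in WT. Of these 3, 0 passed, where 32.9% of all genes did. Their summed log2 level was 12.1 to 12.8 in ka120 and 12.4 to 13.1 in WT. Of 2 measured root markers, EXPA7 and EXPA18, 0 passed, at a summed level of 6.77 to 7.28 in ka120 and 7.08 to 7.55 in WT. The part of these lists in the differences of AT2G15042 and AT4G13820 was not tested.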

How the data were processed

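Biotin-labelled RNA was hybridized to 1 array per sample, per the labels' protocols. The authors deposited log2 levels of probe sets, a unit read from their range. The submitters' processing notes name the affy package and no version; background correction, normalization and summary method are not stated. Titles gave the groups.

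Of 22746 probe sets tested (64 array controls left out), the platform annotation gave 13513 a single gene, 503 several and 8730 none; 13436 matched the TAIR10.1 gene table by gene identifier. The brightest probe set stood for a gene. Differences were fitted with limma 3.58.1 in R 4.3.3 (lmFit, eBayes, no block or filter), with Benjamini-Hochberg adjustment over all probe sets and a threshold of 0.05, after a test on simulated data. By rule, the text names members past the threshold, members with a listed role and measured partner genes. The members, lists and alternatives were chosen with earlier results of these data known, and neighbouring genes were added after values had been seen. Alternatives were 4 scalings, a dim filter, other variance settings, a replicate block, probe set choices and each array left out. Planned promoter motifs were not run, since no sequence table was used here.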

Additional observations from a re-analysis of the deposited data

How the results depend on the processing

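AT2G15042 kept its direction and call in 16 of 16 alternatives (2.62 to 3.18 on the log2 scale, adjusted p up to 8.29e-07) and AT4G13820 in 15 of 15 (0.77 to 1.33, up to 0.00164). With the dimmest 40% of probe sets removed, AT4G13820 was not tested and 1 member was called higher. Centring on hybridization controls and removing the level-dependent offset gave 7255 and 15475 probe sets called higher (4405 as deposited) and 2072 and 1382 called lower (3760 as deposited; 6235 after median centring). Higher calls made up 53.9% of calls as deposited, 34.7% after median centring, 77.8% and 91.8% under the control-based scalings; the median difference was -0.02, -0.15, 0.18 and 0.41. Partner genes called lower numbered 1 under either control-based scaling, against 3: AT1G27190 gave -0.23 and 0.009, and AT1G76360 -0.27 and -0.04. CLV3 turned to 0.10 and 0.33 and passed in the latter (adjusted p = 0.0322), so 3 partner genes were higher there, against 2. How much of these shifts comes from the offset that the scalings add was not tested. Same-numbered arrays correlated in their deviations at -0.01, -0.19 and 0.13, and differently numbered arrays between -0.28 and 0.26. With 3 arrays per genotype these values cannot decide whether the replicate numbers mark pairs, and the main fit did not pair them. With a replicate block 4271 probe sets were higher and both members kept their call (limma adjusted p = 1.35e-07 and 7.61e-05). Adding probe sets of several genes gave no value, since 0 members are on one.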
